A study of Mus musculus with 6 samples.

Results

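MicroRNAs (miRNAs) that are restricted to white blood cells, or that are switched on in them during inflammation, were followed in the livers of mice with metabolic dysfunction-associated fatty liver disease (MAFLD). The group was chosen by name and held 9 mature miRNAs of the 1546 in the deposited values: mmu-miR-142a-3p, mmu-miR-142a-5p, mmu-miR-223-3p, mmu-miR-223-5p, mmu-miR-155-5p, mmu-miR-146a-5p, mmu-miR-146b-5p, mmu-miR-150-5p and mmu-miR-342-3p. All 9 were read in every library and all 9 entered the tests, which took the 501 miRNAs whose average over the libraries reached 1 CPM. CPM gives the reads of a miRNA as a share of the miRNA reads of its library, on one scale for all libraries. The NC group was 3 livers of male C57BL/6 mice on a normal diet, and the MAFLD group was 3 livers of male C57BL/6 mice on a high-fat diet. The diets were given for 16 weeks from 8 weeks of age, with no genetic change described for either group. The model rests on the diet alone, and no pooling of livers was described. There was 1 small RNA library per liver. The protocol fields of the labels describe the human line HepG2, whereas the title, organism and tissue fields name mouse liver, and the latter were followed. The question was whether these miRNAs differed between the livers of MAFLD and NC mice.

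A mature miRNA guides the Argonaute protein to messenger RNAs through its seed, bases 2 to 8, and lowers their translation and stability. Both arms of a hairpin can be kept as mature miRNAs, named 5p and 3p. A liver is built mainly of hepatocytes, but it also holds Kupffer cells, which are its resident macrophages, and a changing number of monocytes, neutrophils and lymphocytes. In a bulk liver library, fewer cells of a type and less RNA per cell cannot be told apart.

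The mature sequences from RefSeq (GRCm38.p6) were matched by name for 8 of the 9 miRNAs. They are shown because the seed sets which messages a miRNA can bind and shows which members are relatives, and the seed is in capitals.

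mmu-miR-142a-3p: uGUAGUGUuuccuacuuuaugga

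mmu-miR-142a-5p: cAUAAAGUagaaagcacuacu

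mmu-miR-223-3p: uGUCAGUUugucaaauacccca

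mmu-miR-223-5p: cGUGUAUUugacaagcugaguug

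mmu-miR-155-5p: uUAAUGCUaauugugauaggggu

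mmu-miR-146a-5p: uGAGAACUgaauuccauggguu

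mmu-miR-146b-5p: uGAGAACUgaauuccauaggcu

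mmu-miR-342-3p: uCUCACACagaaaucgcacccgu

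Of these 8, only miR-146a-5p and miR-146b-5p had the same seed, and no further miRNA of the deposited values with a RefSeq mature sequence carried any of the seeds. The pair was identical at 20 of 22 positions. Counted from the 5′ end of miR-146a-5p, the differences were G18A and U21C, with the base of miR-146a-5p first, so the pair can be told apart by the 3′ part of a read alone. How reads shorter than this were assigned is not given in the sources used here.

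In GRCm38 the hairpin of miR-142a (Mir142) lies on chromosome 11 from 87756864 to 87756927 on the plus strand, in an intron of the long non-coding RNA gene Mir142hg. A second annotated hairpin, Mir142b, covers the same place on the minus strand. Mir223 lies on chromosome X from 96242817 to 96242926, in an exon of the non-coding gene F630028O10Rik. Mir155 lies on chromosome 16 from 84714140 to 84714204, in an exon of its host transcript Mir155hg. The hairpin of miR-146a-5p (Mir146) lies on chromosome 11 from 43374397 to 43374461 on the minus strand, where no other gene is annotated. Mir146b lies on chromosome 19 from 46342762 to 46342870, in an intron of Mfsd13a. Mir342 lies on chromosome 12 from 108658620 to 108658718, in an intron of Evl, a gene of actin filament assembly.

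The libraries held from 1336935 to 4685712 reads on miRNAs. A level of 3 reads, taken as the smallest the depth can show, was between 0.640 and 2.24 CPM. The most abundant miRNA, miR-148a-3p, took from 46.8% to 71.4% of the reads, and a change in this share moves the CPM of the rest. Across the 501 miRNAs tested, the median log2 fold change in MAFLD against NC mice was 0.43, and 71.3% of the miRNAs had a value above 0. Median-ratio scaling, which scales a library by the median of its ratios to a reference made from all libraries, brought that median to 0.034. NC replicates 1 and 2 stood apart in a list of 4 brain miRNAs, which summed to 364 and 573 CPM there and to at most 19.5 CPM in the other 4 libraries. Most of this sum was miR-9-5p, at 344 and 530 CPM. MiR-124-3p, one of the most neuron-specific miRNAs, was at 13.7 and 28.7 CPM there and at 0 in NC replicate 3 and in MAFLD replicates 1 and 2, while miR-137-3p, at 2.35 to 7.48 CPM, did not set the pair apart. The members' log2 fold changes were therefore also computed without these NC libraries, and the part of that signal in the results was not tested. The 4 hepatocyte miRNAs (both arms of miR-122, miR-192-5p and miR-194-5p) took from 10.3% to 17.7% of the reads.

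None of the 9 miRNAs passed an adjusted p of 0.05 between MAFLD and NC mice in limma on log2(CPM + 1), with Benjamini-Hochberg adjustment over the 501 miRNAs, where 0.200% of all miRNAs tested did. Their log2 fold changes on CPM were all above 0, from 0.093 to 1.53, but only 6 of the 9 stayed above 0 with median-ratio scaling. The median of the 9 was 0.70 beside the 0.43 of all miRNAs on CPM, and 0.28 beside 0.034 with median-ratio scaling. MiR-155-5p, the miRNA that activated macrophages and lymphocytes switch on, had the largest value and was the only member with an unadjusted p under 0.05. At that threshold 13.4% of all miRNAs tested were higher in MAFLD mice, which stands beside 1 of the 9. The groups did not overlap for 1 member, miR-342-3p, and the corresponding share of all miRNAs tested was 15.2%. The counts of the members were thus near the background of all miRNAs. With edgeR and DESeq2 on the recovered reads, 0 of the 9 passed an adjusted p of 0.05 and 0 passed an unadjusted p of 0.05, at which 7.39% of all miRNAs were higher with edgeR and 5.79% with DESeq2.

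**Figure D1:**
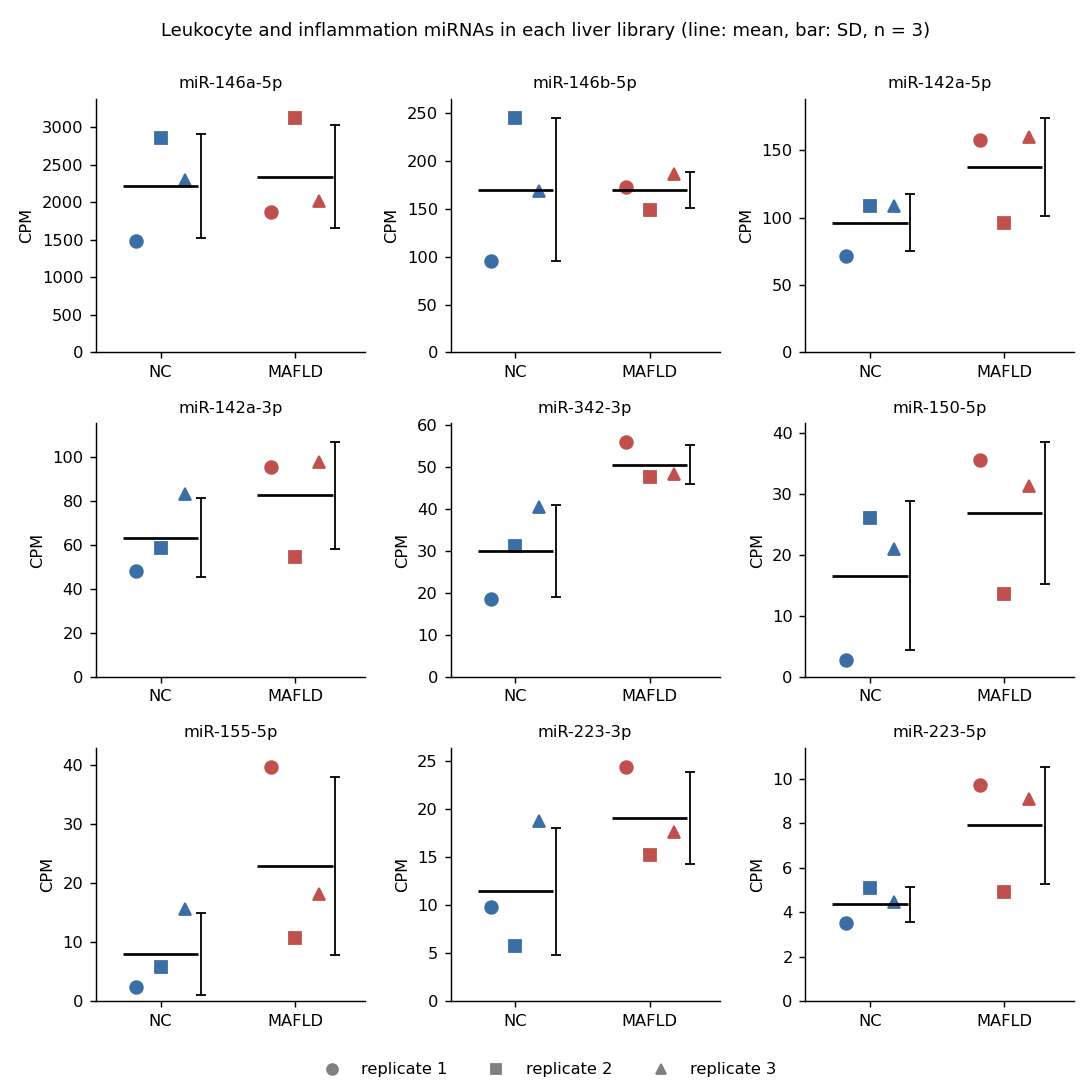
CPM of the 9 miRNAs in each liver library, with a separate axis from 0 in each panel, blue for NC and red for MAFLD, and the marker shape for the replicate number. Lines are means and bars are SD (n = 3), and only in the panel of miR-342-3p do all MAFLD points lie above all NC points.

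By level the members fell into a very abundant miRNA and a row of scarce ones. CPM of different miRNAs was compared without a length correction because the mature miRNAs are of nearly one length (21 to 23 bases), and unequal adapter ligation between sequences was not measured. MiR-146a-5p came first with a mean of 2276 CPM over the 6 libraries, 13.4 times the mean of miR-146b-5p, the next in order. After it came miR-142a-5p at 117 CPM, miR-142a-3p at 72.9 CPM, miR-342-3p at 40.3 CPM, miR-150-5p at 21.7 CPM, miR-155-5p at 15.4 CPM, miR-223-3p at 15.2 CPM and miR-223-5p at 6.15 CPM. The order from miR-146a-5p down to miR-150-5p held in each of the 6 libraries. MiR-150-5p was above miR-155-5p in 5 of the 6. MiR-155-5p was above miR-223-3p in 2 of the 6 and tied with it in NC replicate 2, at 5.73 CPM, so this last pair held no fixed order. MiR-223-3p was above miR-223-5p in all 6.

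MiR-155-5p comes from the Mir155hg transcript, which is induced through NF-κB and AP-1 when macrophages, dendritic cells, B cells and T cells are activated, and it is known for promoting inflammatory cytokine production. It was read 6, 9 and 21 times in the NC libraries, which is 2.35, 5.73 and 15.7 CPM. In the MAFLD libraries it was read 106, 50 and 28 times, which is 39.8, 10.7 and 18.2 CPM. MAFLD replicate 1 was the highest and NC replicate 1 the lowest, and the groups overlapped because NC replicate 3 was above MAFLD replicate 2. The 95% Wilson interval of NC replicate 3 ran from 10.3 to 24.0 CPM and overlapped with those of MAFLD replicate 2 (8.09 to 14.1 CPM) and MAFLD replicate 3 (12.6 to 26.4 CPM). These intervals cover counting error only. NC mice averaged 7.93 ± 6.94 CPM (SD, n = 3) and MAFLD mice 22.9 ± 15.1 CPM (SD, n = 3). The log2 fold change was 1.53 (standard error 0.63, 95% interval 0.19 to 2.88), and limma gave a raw p of 0.0277, which stood at position 63 of the 501 and was 0.221 after adjustment. With median-ratio scaling it was 1.13, and the raw limma p of 0.0466 became 0.295 after adjustment.

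The value of miR-155-5p depended on the NC liver it was set against. Without NC replicate 3 it rose to 2.14 on the log2 scale, with a limma adjusted p of 0.0219, and 1 of the 9 members was then higher at an adjusted p under 0.05 beside 19.0% of all miRNAs tested. With NC replicate 3 as the only NC library it was 0.32, with an adjusted p of 0.999, where the lone library was assumed to vary like the others. The unadjusted p rose to 0.135 without NC replicate 1 and to 0.167 without MAFLD replicate 1, where the log2 differences were 0.98 and 1.05. The other arm, miR-155-3p, was not among the listed miRNAs.

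MiR-142a and miR-223 are miRNAs of blood-forming cells. MiR-142a is expressed across nearly all white blood cells and their precursors, and miR-223 is made mainly in neutrophils, monocytes and macrophages, where it restrains granulocyte activation. MiR-142a-5p was at 71.8, 108.3 and 108.5 CPM in the NC libraries and at 158, 95.8 and 160 CPM in the MAFLD libraries. MAFLD replicates 1 and 3 were above all NC mice, while MAFLD replicate 2 lay between NC replicate 1 and the other two. The log2 difference of the 5p arm was 0.50 (standard error 0.40, 95% interval −0.35 to 1.35, adjusted p = 0.493 from limma). MiR-142a-3p was at 48.2, 58.6 and 83.0 CPM in the NC libraries and at 95.3, 54.6 and 97.7 CPM in the MAFLD libraries. It showed the same layout, with MAFLD replicate 2 below NC replicates 2 and 3. For the 3p arm the log2 difference was 0.37 (standard error 0.42, 95% interval −0.53 to 1.27, adjusted p = 0.653 from limma), and it was −0.10 with median-ratio scaling. For both arms the groups overlapped and the 95% interval of the difference included 0.

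MiR-223-3p, the arm of miR-223 for which most targets are known, was read 25, 9 and 25 times in the NC libraries and 65, 71 and 27 times in the MAFLD libraries. This is 9.81, 5.73 and 18.7 CPM in NC mice and 24.4, 15.2 and 17.6 CPM in MAFLD mice. NC replicate 3 was above MAFLD replicates 2 and 3, so the groups overlapped. The mean was 11.4 ± 6.63 CPM (SD, n = 3) against 19.0 ± 4.78 CPM (SD, n = 3). On the log2 scale the 3p arm differed by 0.80 (standard error 0.51, 95% interval −0.29 to 1.89, adjusted p = 0.409 from limma). Without NC replicate 3 it was 1.21, with an adjusted p of 0.0744. With NC replicate 3 as the only NC library it was −0.0013. MiR-223-5p was read between 6 and 26 times per library, at 3.53, 5.10 and 4.49 CPM in NC mice and 9.75, 4.91 and 9.12 CPM in MAFLD mice. MAFLD replicates 1 and 3 were again above all NC mice and MAFLD replicate 2 was not. The 5p arm differed by 0.70 on the log2 scale (standard error 0.51, 95% interval −0.39 to 1.78, adjusted p = 0.451 from limma).

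Both arms of miR-142a and of miR-223 come from one hairpin each, and their ratio of CPM within a library does not depend on the scaling between libraries. The ratios are given as they are, and for the tests 1 CPM was added to both arms, which draws a ratio of scarce arms towards 1. For miR-142a the 5p arm was the more abundant in all 6 libraries. The ratio of 3p to 5p was 0.672, 0.541 and 0.766 in NC mice and 0.605, 0.570 and 0.612 in MAFLD mice. With the added 1 CPM, the mean difference of its log2, MAFLD minus NC, was −0.13 (exact permutation test, two-sided, p = 0.5, where 3 livers against 3 cannot go below 0.1). For miR-223 the 3p arm was the more abundant, with ratios of 2.78, 1.13 and 4.17 in NC mice and 2.50, 3.09 and 1.93 in MAFLD mice. The difference was 0.11 on the log2 scale with the added 1 CPM (exact permutation test, two-sided, p = 0.9) and 0.064 without it, on few reads. It was −0.36 without NC replicate 2, which had 9 and 8 reads of the arms, and 0.49 without NC replicate 3. In neither hairpin did the arm ratio of the groups separate.

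**Figure D2:**
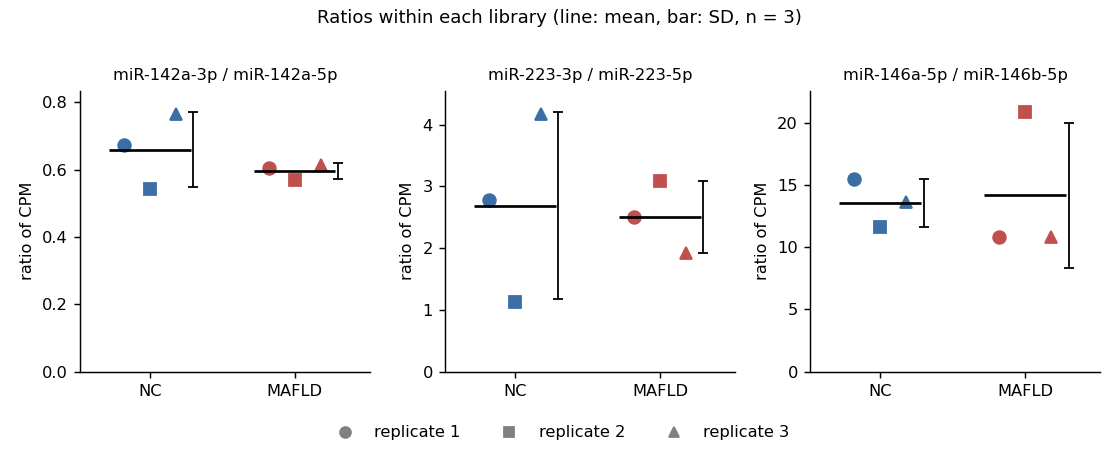
Ratio of CPM within each library for the arms of miR-142a, the arms of miR-223, and miR-146a-5p to miR-146b-5p, on axes from 0, with lines for means and bars for SD (n = 3). The groups overlap in all 3 panels, and the miR-142a ratios stay between 0.541 and 0.766.

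MiR-146a-5p and miR-146b-5p are feedback miRNAs of innate immunity, transcribed on NF-κB activation in many cell types and known for lowering Traf6 and Irak1. MiR-146a-5p was at 1481, 2857 and 2302 CPM in the NC libraries and at 1870, 3124 and 2022 CPM in the MAFLD libraries. Its lowest value was in NC replicate 1 and its highest in MAFLD replicate 2, and the groups lay across each other. With at least 3077 reads in each library its counting error was small, and the spread lay between livers or their libraries. NC mice averaged 2213 ± 692 CPM (SD, n = 3) and MAFLD mice 2339 ± 684 CPM (SD, n = 3). This is a log2 difference of 0.093 (standard error 0.34, 95% interval −0.62 to 0.81, adjusted p = 0.908 from limma). It stood below the 0.43 of all miRNAs, and with median-ratio scaling it was −0.38, so that its direction followed the scaling.

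MiR-146b-5p was at 95.7, 245 and 169 CPM in the NC libraries and at 173, 149 and 187 CPM in the MAFLD libraries. The MAFLD mice lay inside the range of the NC mice, whose highest value was 2.56 times their lowest. The mean was 170.0 ± 74.8 CPM (SD, n = 3) against 169.9 ± 19.0 CPM (SD, n = 3). The log2 difference was 0.094 (standard error 0.41, 95% interval −0.78 to 0.97, adjusted p = 0.924 from limma), and −0.38 with median-ratio scaling. Within the seed family miR-146a-5p outnumbered miR-146b-5p by 15.5, 11.6 and 13.6 times in NC mice and by 10.8, 20.9 and 10.8 times in MAFLD mice. With 1 CPM added to both, the log2 of this ratio differed by −0.0015 between the groups (exact permutation test, two-sided, p = 1). It differed by −0.32 without MAFLD replicate 2, the liver with the most miR-146a-5p.

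MiR-150-5p is the miRNA of mature B and T cells, where it lowers the transcription factor Myb. It was read 7, 41 and 28 times in the NC libraries, at 2.75, 26.1 and 20.9 CPM, and 95, 64 and 48 times in the MAFLD libraries, at 35.6, 13.7 and 31.3 CPM. NC replicate 1 was far below all other libraries, and MAFLD replicate 2 was below NC replicates 2 and 3. The highest NC liver had 9.52 times the level of the lowest, the widest spread within a group among the members. MAFLD minus NC was 0.99 on the log2 scale (standard error 0.67, 95% interval −0.44 to 2.41, adjusted p = 0.429 from limma). It was 0.27 with edgeR on the recovered reads and 0.085 without NC replicate 1. Without NC replicate 2 it was 1.51, with a raw limma p of 0.0314 that adjustment took to 0.592.

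MiR-342-3p, which is made from an intron of Evl and is found in lymphocytes and macrophages, was at 18.4, 31.2 and 40.4 CPM in the NC libraries and at 55.9, 47.6 and 48.2 CPM in the MAFLD libraries. Every MAFLD liver was above every NC liver, and the MAFLD mice lay close together, with the highest at 1.17 times the lowest. The 95% Wilson interval of NC replicate 3 ran from 31.0 to 52.7 CPM, however, and so covered the values of MAFLD replicates 2 and 3. NC mice averaged 30.0 ± 11 CPM (SD, n = 3) and MAFLD mice 50.6 ± 4.63 CPM (SD, n = 3). The log2 difference was 0.80 (standard error 0.44, 95% interval −0.14 to 1.73), and limma gave a raw p of 0.0892, or 0.333 adjusted. With median-ratio scaling the values were 29.1, 40.8 and 32.2 in NC mice and 43.0, 49.2 and 36.9 in MAFLD mice, the groups overlapped, and the log2 fold change was 0.33. Without NC replicate 3 it was 1.04, with an adjusted p of 0.0603. With NC replicate 3 as the only NC library it was 0.31, with an adjusted p of 0.983.

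**Figure D3:**
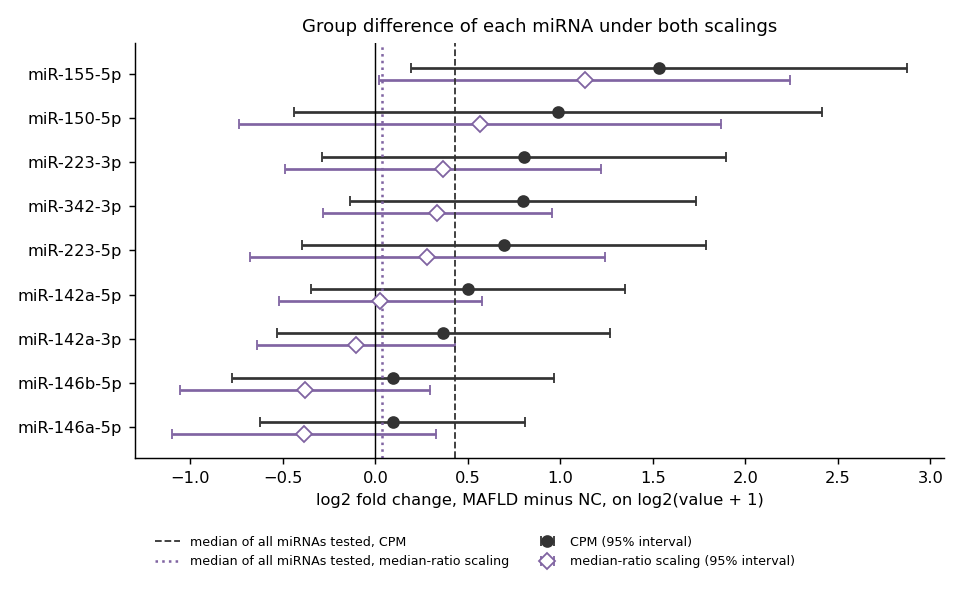
Log2 fold change of each miRNA in MAFLD against NC mice with its 95% interval from limma, on CPM (filled circles) and with median-ratio scaling (open diamonds), with dashed and dotted lines at the medians of all 501 miRNAs, 0.43 and 0.034. On CPM the interval of miR-155-5p alone lies above 0, and with median-ratio scaling the values of miR-142a-3p, miR-146a-5p and miR-146b-5p lie below 0.

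Across the livers the members other than the miR-146 pair varied together on the CPM scale. The 7 summed to 157, 241 and 292 CPM in the NC libraries and to 418, 242 and 382 CPM in the MAFLD libraries, so that MAFLD replicate 2 was level with NC replicate 2. The miR-146 pair summed to 1577, 3102 and 2471 CPM in NC mice and to 2044, 3274 and 2209 CPM in MAFLD mice, a different order. NC replicate 1 held the lowest value of 8 of the 9 members, and all 9 members were lower there than in every MAFLD liver. With CPM computed without miR-148a-3p, and also with median-ratio scaling, NC replicate 1 held the lowest value of 3 of the 9. The number of members lowest in this library thus depended on the scaling, but its place by the mean log2 value of the 9 members did not. That mean was the lowest of the 6 libraries on each scale. It was 4.72 on CPM, 6.40 once miR-148a-3p was left out, and 5.32 after scaling by median ratios. The next lowest means were 5.55 (NC replicate 2), 6.75 and 5.51 (both NC replicate 3). MiR-148a-3p took 71.4% of the reads of NC replicate 1, and its part in these values was not tested. On CPM, NC replicate 3 was above NC replicates 1 and 2 in 5 of the 9 and below every MAFLD liver in 2 of the 9, miR-342-3p and miR-223-5p.

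Over the 36 pairs of members, Pearson's r of log2(CPM + 1) across the 6 libraries was above 0 in 32, with a median of 0.71, and it is given as a description of 6 points that share library scaling. It was highest, at 0.96, for miR-142a-5p and miR-223-5p, and it was 0.92 for the arms of miR-142a. With median-ratio scaling r was above 0 in 21 of the 36 pairs, with a median of 0.19. It was then 0.89 for miR-142a-5p with miR-223-5p, 0.76 for the miR-146 pair and 0.70 for the arms of miR-142a. The mean log2(CPM + 1) of the 9 members was most like that of miR-32-5p (r = 0.995 over 6 libraries), miR-335-5p (0.980), miR-362-3p (0.968), miR-193a-3p (0.967) and miR-181a-5p (0.965). The median r of the 492 other miRNAs with this mean was 0.57, and 47 of them had an r over 0.9, so a high r was common in these libraries. MiR-32-5p, for example, was at 12.6, 29.9 and 38.1 CPM in NC mice and at 55.2, 34.6 and 52.1 CPM in MAFLD mice.

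**Figure D4:**
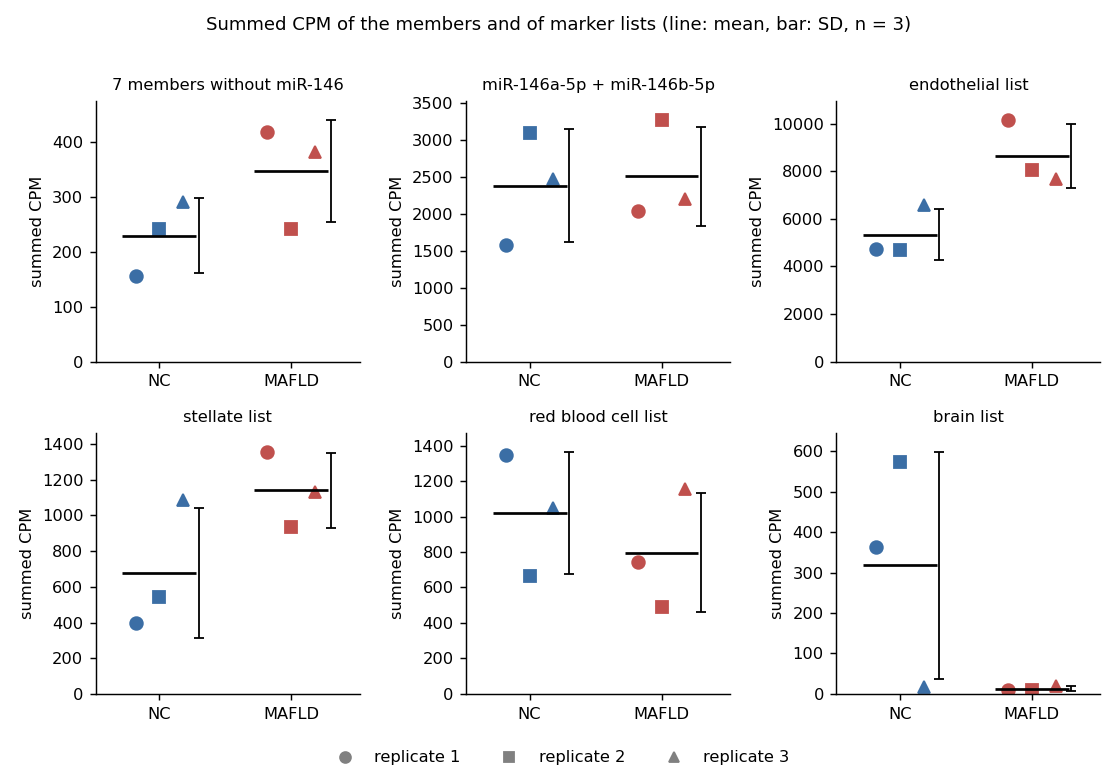
Summed CPM in each library of the 7 members other than the miR-146 pair, of the miR-146 pair, and of the endothelial, stellate, red blood cell and brain lists, on axes from 0, with lines for means and bars for SD (n = 3). NC replicates 1 and 2 alone have a high brain list, and they have the lowest endothelial and stellate lists.

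Markers of other cells were set beside the members. The endothelial pair (both arms of miR-126a, a miRNA of vessel lining) summed to between 4710 and 6587 CPM in NC mice and between 7659 and 10155 CPM in MAFLD mice, with no overlap. Most of it was miR-126a-3p, whose groups did not overlap on CPM, where that share was 15.2% of all miRNAs tested, while those of miR-126a-5p did overlap. With median-ratio scaling the endothelial sums overlapped, at 5251 to 7448 in NC mice and 5865 to 8310 in MAFLD mice. There the groups of miR-126a-3p overlapped, while those of miR-126a-5p did not, at 192 to 230 in NC mice and 254 to 391 in MAFLD mice. With this scaling 11.6% of all miRNAs tested were higher without overlap. The 3 stellate cell miRNAs (both arms of miR-199a and miR-214-3p) summed to 396, 545 and 1088 CPM in NC mice and to 1355, 937 and 1130 CPM in MAFLD mice. On CPM, NC replicate 3 lay with the MAFLD mice in this list, as it did for miR-155-5p and miR-223-3p. The stellate sums with median-ratio scaling were 625, 712 and 867 in NC mice and 1042, 968 and 865 in MAFLD mice. NC replicate 3 was then level with the lowest MAFLD liver only. The groups of miR-199a-3p did not overlap with that scaling, while those of miR-199a-5p and miR-214-3p did. The 5 red blood cell miRNAs were miR-451a, both arms of miR-144, and miR-486a-5p and miR-486b-5p, whose values were identical. They summed to between 662 and 1348 CPM in NC mice and between 490 and 1157 CPM in MAFLD mice. Most of this sum was miR-451a, and the identical miR-486 values entered it under both names. The lowest of the 6 was MAFLD replicate 2, the liver low in several members. The highest was NC replicate 1, which held the lowest value of 8 of the 9 members. With median-ratio scaling the log2 differences in this list were −0.96 for miR-451a (unadjusted p = 0.0197, adjusted p = 0.233 from limma) and −1.12 for miR-144-3p. They were −0.57 for miR-486a-5p and miR-486b-5p, and 0.38 for miR-144-5p. Only miR-144-3p was then lower without overlap, beside 9.18% of all miRNAs tested. The part of blood left in the vessels and of other cell types in the members' values was not tested.

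The wider list of relatives held 11 miRNAs, of which 10 were listed and 3 were tested. These 3 were macrophage miRNAs. MiR-511-3p comes from an intron of the mannose receptor gene Mrc1 of macrophages and sinusoidal endothelium. It was at 0.392, 1.27 and 5.98 CPM in NC mice and at 10.9, 5.98 and 4.56 CPM in MAFLD mice. This is 1, 2 and 8 reads in the NC libraries and 29, 28 and 7 reads in the MAFLD libraries. NC replicates 1 and 2 were thus below the level of 3 reads. The log2 difference of miR-511-3p was 1.46 (standard error 0.64, unadjusted p = 0.0377, adjusted p = 0.247 from limma). MiR-652-3p was at 21.2, 31.9 and 88.3 CPM in NC mice and at 106.5, 67.2 and 88.0 CPM in MAFLD mice, a log2 difference of 1.11 (standard error 0.50, unadjusted p = 0.0437, adjusted p = 0.258 from limma). In both, NC replicate 3 was inside the range of the MAFLD mice. MiR-511-5p differed by 0.61 on the log2 scale (adjusted p = 0.587 from limma). Thus 2 of 3 were higher at an unadjusted p under 0.05, beside 13.4% of all miRNAs tested, and 0 of 3 at an adjusted p under 0.05. With median-ratio scaling 0 of 3 passed an unadjusted p under 0.05, where 7.19% of all miRNAs tested were higher. The log2 differences were then 1.20 for miR-511-3p (unadjusted p = 0.0615 from limma) and 0.64 for miR-652-3p (unadjusted p = 0.0591 from limma). The other 7 listed relatives, among them miR-146a-3p, miR-146b-3p, miR-150-3p, miR-342-5p and both arms of miR-147, had from 1 to 8 reads over all 6 libraries together, and no difference was detectable at this depth. MiR-142b, whose 20 bases lie within the reverse complement of miR-142a-3p, had 6 reads in all beside 986 of miR-142a-3p.

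For 7 of the 9 members another scaling or a count model moved the log2 fold change further than any left-out library, as for miR-142a-5p, which went from 0.50 to 0.0071 with DESeq2. For the other 2, miR-155-5p and miR-150-5p, a left-out library moved it further. The count of members with every MAFLD liver above every NC liver went from 1 to 6 without MAFLD replicate 2, but 33.5% of all miRNAs tested did the same there. It was 3 without NC replicate 3 beside 43.9% of all, and 2 without NC replicate 2 beside 17.4%. It was 0 with median-ratio scaling beside 11.6%, and 2 with NC replicate 3 as the only NC library beside 21.4%. At an unadjusted p under 0.05 in limma, 3 of the 9 were higher without NC replicate 3 beside 29.9% of all, and 2 of the 9, miR-155-5p and miR-150-5p, without NC replicate 2 beside 5.39%. With NC replicate 3 as the only NC library, the log2 fold changes of the 9 ran from −0.055 to 0.65 with a median of 0.24, beside a median of −0.024 over all 501 miRNAs. Without NC replicate 3 they ran from 0.14 to 2.14 with a median of 0.72, beside 0.67 over all.

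**Figure D5:**
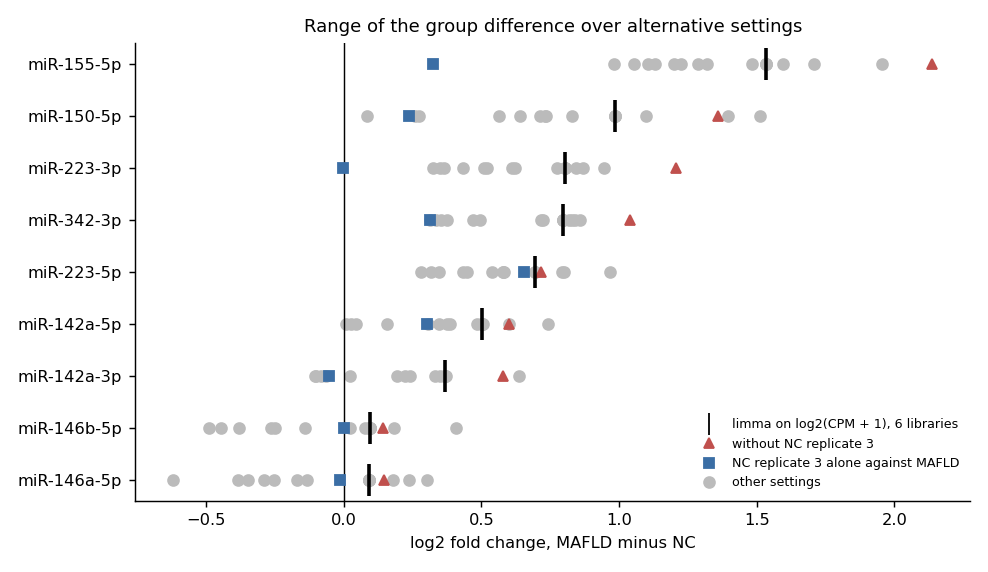
Log2 fold change of each miRNA in MAFLD against NC mice over the alternative settings (grey), without NC replicate 3 (red triangles) and with NC replicate 3 as the only NC library (blue squares), with a black bar for limma on log2(CPM + 1) in all 6 libraries. MiR-155-5p runs from 0.32 to 2.14 and stays above 0, and miR-146a-5p runs from −0.62 to 0.30.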

How the data were processed

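Small RNA was sequenced from 3 NC and 3 MAFLD livers, 1 library each. The deposited values are CPM of 1546 mature miRNAs, which the authors scaled to the same total in each library. The submitters' processing notes name FastQC, cutadapt, Bowtie, edgeR and GRCm38, without roles. All deposited CPM values (100%) came within 0.02 of a whole multiple of the smallest value of their library, which gave the reads behind them. Depth was 1336935 to 4685712 reads, and Wilson intervals at 95% cover counting error only.

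MAFLD was set against NC with limma 3.58.1 (R 4.3.3, lmFit and eBayes with trend) on log2(CPM + 1), two-sided, for the 501 miRNAs whose average reached 1 CPM, with Benjamini-Hochberg adjustment over all 501. Fold changes of scarce miRNAs are understated by the added 1 CPM. The limma p-values set a group difference against the spread between 3 livers a group, which eBayes draws towards a trend over all miRNAs fitted. With 1 library per liver, that spread holds differences between mice and between libraries. Ratios were compared with exact permutation tests (scipy 1.17.1). Other settings were a pseudocount of 0.1 or 5, every miRNA or those averaging 10 CPM, 3 other scalings, limma without the trend, the replicate number as a block, edgeR 4.0.16 and DESeq2 1.42.0 on recovered reads, and each library left out. NC replicate 3 alone against MAFLD, and ratios without a pseudocount, were added after the values were seen. The fits were checked on simulated data.

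Members, lists and tests were chosen with earlier results of these data known. All 9 members were named, with 11 relatives, 5 marker lists and the 5 miRNAs of most similar profile. Sequences and positions come from RefSeq and GENCODE M21 on GRCm38. Same-numbered livers were different mice, and the correlations of their deviations were 0.012, −0.020 and −0.046.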

Additional observations from a re-analysis of the deposited data

How the results depend on the processing

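The median log2 fold change of the members tested was above that of all miRNAs in every setting run, but these settings share the same libraries. The gap was small without NC replicate 1 (0.305 beside 0.262) and without NC replicate 3 (0.716 beside 0.668). In each of these, 5 of the 9 members were above the median of all miRNAs, and at a mean of 10 CPM 4 of 8 were. The count past the adjusted p, 0 of 9, was also 0 in every alternative except without NC replicate 3, where it was 1 (miR-155-5p), so the fits that left out 1 library gave 0 to 1. The count past the unadjusted p, 1 of 9, was 0 with edgeR, with DESeq2 and with NC replicate 3 alone against MAFLD, and 0 to 3 when 1 library was left out (3 without NC replicate 3, where 29.9% of all miRNAs were also higher). The count without overlap, 1 of 9, was 0 with median-ratio scaling, 2 with NC replicate 3 alone (21.4% of all miRNAs), and 1 to 6 when 1 library was left out (6 without MAFLD replicate 2, beside 33.5% of all). The log2 fold change of miR-146a-5p (0.093) reversed to −0.38 with median-ratio scaling, −0.25 without miR-148a-3p, −0.62 with quantile normalization, −0.29 with edgeR, −0.35 with DESeq2 and −0.015 with NC replicate 3 alone, and lay between −0.17 and 0.30 in the fits that left out 1 library. That of miR-146b-5p (0.094) reversed to −0.38, −0.25, −0.14, −0.45 and −0.49 in the first 5 of these settings, and lay between −0.27 and 0.41 in the latter fits. That of miR-142a-3p (0.37) reversed to −0.10 with median-ratio scaling, −0.083 with quantile normalization, −0.066 with edgeR, −0.10 with DESeq2 and −0.055 with NC replicate 3 alone, and that of miR-223-3p (0.80) to −0.0013 with NC replicate 3 alone. The scalings and the count models lower the median of all miRNAs, from 0.43 to between −0.0049 (DESeq2) and 0.16 (without miR-148a-3p). With 1 library left out, the log2 arm ratio of miR-223 differed by −0.36 to 0.49 and the log2 ratio of the miR-146 pair by −0.32 to 0.16, and the latter was 0.0031 with a pseudocount of 5. The cause of these moves was not tested. With the replicate block, 0 of the 9 members passed the adjusted p and 1 the unadjusted p, and the count over all miRNAs past the adjusted p went from 1 to 5. That count was 32 with DESeq2, 11 without a filter, 2 with median-ratio scaling or without miR-148a-3p, 0 without the trend, and 0 to 114 with 1 library left out. Of 6 libraries, 0 correlated best with the same number. MiR-223-5p was not tested at a mean of 10 CPM. Depth limits miR-155-5p, miR-150-5p and both arms of miR-223, with 6 to 9 reads in their lowest libraries. It also limits both arms of miR-511 among the relatives, with 1 read in their lowest libraries.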
